A study of Mus musculus with 24 samples.

Results

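In all, 8 genes of adenosine handling were described across the brain libraries of knockout and control mice: Ada, Adk and Pnp, which encode enzymes that remove adenosine or its product inosine, Nt5e, which encodes an enzyme that makes adenosine, Slc29a1, which encodes a nucleoside transporter, and the adenosine receptor genes Adora1, Adora2a and Adora2b. They were picked by name with earlier results of these data known, so their differences between genotypes are given as a description, with counts of calls beside those of all genes and no p-value for a gene. Of the 8 symbols, 7 matched a gene identifier in the count tables, which hold 50686 genes, and all 7 were among the 21657 genes tested. The identifier of Pnp did not match, and a gene model that shares most of its exon bases with Pnp is described in its place under its own name, Gm49342. RNA came from tissue labelled as back left brain of C57BL/6 mice and was sequenced as stranded mRNA libraries. Mice labelled Pank1-/- Syn-Pank2-/- (dKO) were compared with wild type (WT), at day 10 and day 20, in females and males, with 3 libraries in each of the 8 groups. No treatment is given for any group, and the sources used here do not say what Syn stands for or which cells lost Pank2. Since nothing in the labels says that libraries of a group are from different mice, p-values measure only the spread between libraries, which may be technical. Replicate numbers were assigned in the order of the deposited samples and only name a library.

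Adenosine is a purine nucleoside that acts inside cells as a building block and outside them as a signal. Outside cells it is formed from ATP by successive removal of phosphates, with the ectoenzyme encoded by Nt5e taking the last phosphate from AMP. Equilibrative transporters such as the product of Slc29a1 let it cross membranes in either direction, and it is then removed by adenosine kinase (Adk), which makes AMP, or by adenosine deaminase (Ada), which makes inosine. Purine nucleoside phosphorylase (Pnp) splits inosine further. In the brain adenosine dampens neuronal firing through the receptor encoded by Adora1, which inhibits adenylyl cyclase, whereas the products of Adora2a and Adora2b stimulate it, and Adora2a is known for its high level in striatal projection neurons of the indirect pathway.

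Gene counts were 9.19 to 44.7 M per library in 23 libraries, where 1 count equals 0.0224 to 0.109 counts per 1 M gene counts before scaling. Levels are given as CPM (counts per 1 M gene counts, scaled between libraries by TMM factors). With 45964 gene counts, dKO male day 10 replicate 3 was left out throughout. Pank1 was at 6.71 to 8.12 CPM in dKO and 19.5 to 26.7 CPM in WT libraries at day 20, and at 7.17 to 8.87 against 21.0 to 24.7 CPM at day 10. Pank2 differed by -0.43 on the log2 scale at day 20, without overlap, and by -0.09 at day 10, where dKO libraries at 44.6 to 52.1 CPM overlapped WT libraries at 46.3 to 56.3 CPM. Another library, dKO male day 10 replicate 2, stood apart in markers of brain regions. Its 6 cerebellar neuron markers summed to 349 CPM, against 564 to 2665 CPM in the other day 10 libraries, and its 8 choroid plexus markers to 49.0 CPM, against 280 to 641 CPM. It was not the only one to differ. In WT female day 10 replicate 3 the 8 oligodendrocyte markers summed to 11470 CPM, against 3802 to 7551 CPM in the other day 10 libraries. Among WT day 10 libraries it was lowest in Slc29a1 (53.1 CPM) and highest in Adora1 (98.7 CPM) and Adk (39.5 CPM). At day 20 all libraries expressed markers of neurons, with 6 genes summing to 3294 to 3896 CPM. The 10 markers of striatal projection neurons summed to 374 to 421 CPM. Pde10a and Adcy5 were the largest parts of that sum (means of 131 and 121 CPM in WT), while Drd1 was at 1.74 and Gpr6 at 0.299 CPM. Cerebellar neuron markers summed to 2178 to 2689 CPM in dKO and 1902 to 2907 CPM in WT at day 20.

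The sequences before the transcription starts of 4 of these genes are shown because their levels did not overlap between genotypes at day 20 (Ada and Adk) or between days in WT (Adora1 and Slc29a1). RefSeq windows on GRCm38.p6 were found for 7 of the 8 symbols. The exception was Adora2a, whose levels also did not overlap between genotypes at day 20. Each sequence gives the 250 bases before a start, 5′ to 3′ on the strand of the gene. Capitals mark GGGCGG or its reverse complement CCGCCC, the core of the GC box bound by Sp-family factors. The windows are chr2:163750240-163750489 (minus strand) for Ada, chr14:21052324-21052573 (plus strand) for the upstream start of Adk, chr1:134235458-134235707 (minus strand) for the upstream start of Adora1, and chr17:45599619-45599868 (minus strand) for the upstream start of Slc29a1.
Ada: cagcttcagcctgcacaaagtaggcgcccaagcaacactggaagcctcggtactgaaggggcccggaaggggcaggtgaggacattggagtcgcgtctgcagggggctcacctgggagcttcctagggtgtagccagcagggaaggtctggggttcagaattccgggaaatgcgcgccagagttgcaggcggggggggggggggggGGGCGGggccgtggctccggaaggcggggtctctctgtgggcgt
Adk: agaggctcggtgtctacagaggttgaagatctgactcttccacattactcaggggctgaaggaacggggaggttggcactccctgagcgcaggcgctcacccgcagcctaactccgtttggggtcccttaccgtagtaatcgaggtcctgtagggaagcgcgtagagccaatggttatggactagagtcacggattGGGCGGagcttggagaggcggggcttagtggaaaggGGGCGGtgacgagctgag
Adora1: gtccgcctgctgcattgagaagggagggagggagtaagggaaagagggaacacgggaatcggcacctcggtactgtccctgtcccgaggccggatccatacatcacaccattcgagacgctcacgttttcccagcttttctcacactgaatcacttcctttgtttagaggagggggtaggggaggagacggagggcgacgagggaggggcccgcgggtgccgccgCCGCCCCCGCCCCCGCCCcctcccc
Slc29a1: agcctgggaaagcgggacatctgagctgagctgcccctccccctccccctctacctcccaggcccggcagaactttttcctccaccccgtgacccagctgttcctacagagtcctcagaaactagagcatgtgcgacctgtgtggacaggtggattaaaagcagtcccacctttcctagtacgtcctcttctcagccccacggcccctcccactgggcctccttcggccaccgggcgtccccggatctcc
Ada held 1 match, whose first base lay 44 bases before the start. Adk held 2, at 54 and 18 bases, and Adora1 held 3 that adjoin in 1 run starting 25 bases before the start. The Slc29a1 window held 0 matches, but 4 of the 8 windows listed for that gene did hold the motif. GGGCGG occurred on either strand in 32.7% of 32851 RefSeq windows of the same length. None of the 4 sequences shown held TATAAA (12.4% of windows), TGACGTCA (1.55%), CACGTG (6.02%) or the palindromic consensus of the glucocorticoid response element (0.00913%), searched on both strands. A match in letters is not evidence of a bound site.

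Ada (ENSMUSG00000017697, chromosome 2, 163726584 to 163750239, minus strand, GRCm38) was the member with the greatest difference between genotypes, and the difference was at day 20. In dKO females at day 20 it measured 6.80, 4.62 and 5.13 CPM, and in dKO males 4.35, 5.76 and 5.71 CPM. WT females measured 0.416, 0.417 and 0.508 CPM, and WT males 0.645, 0.898 and 0.716 CPM. Every dKO library was thus above every WT library, by a wide gap. Group means were 5.39 ± 0.892 (SD, n = 6) in dKO and 0.600 ± 0.190 CPM (SD, n = 6) in WT, an 8.99-fold ratio. The fitted log2 fold change was 3.23 ± 0.17 (SE), which ranked 39 of 21657 genes from the highest. It was 3.62 ± 0.25 in females and 2.84 ± 0.23 in males. At day 10 the groups overlapped: dKO females measured 0.978, 1.37 and 1.39 CPM and dKO males 1.06 and 1.23 CPM. WT females measured 0.868, 1.06 and 0.758 CPM and WT males 0.653, 1.10 and 0.619 CPM. The log2 fold change at day 10 was 0.51 ± 0.20, and 3 of the 5 dKO libraries lay above the highest WT library. Within dKO the mean went from 1.20 ± 0.184 CPM (n = 5) at day 10 to 5.39 CPM at day 20, with no overlap, as for 37.7% of all genes. In bulk tissue, fewer or more cells that express a gene cannot be told apart from less or more RNA per cell.

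**Figure D1:**
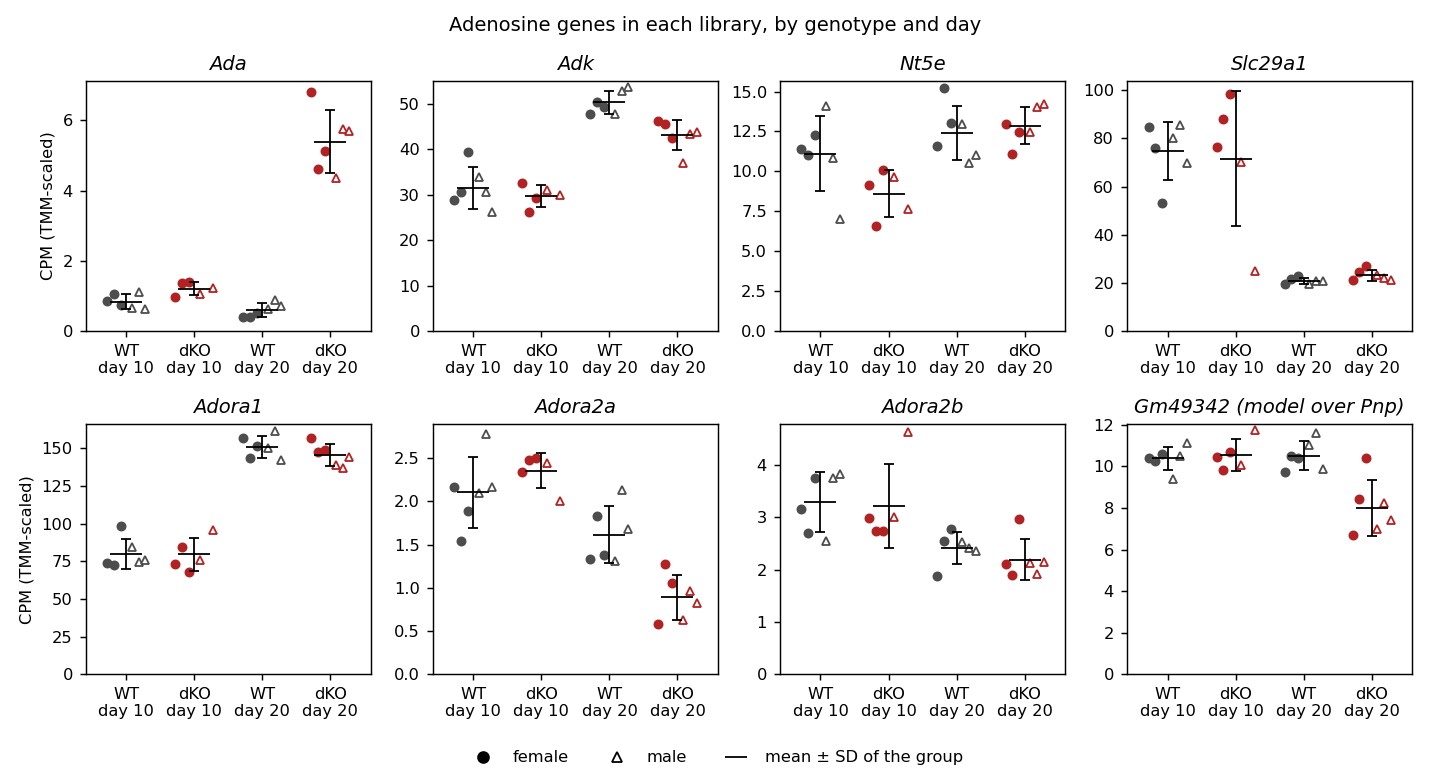
Each panel plots 1 gene, with TMM-scaled CPM on a linear vertical axis from 0 and genotype and day on the horizontal axis; points are single libraries (filled circles female, open triangles male) and bars give the mean ± SD. Ada in dKO at day 20 lies at 4.35 to 6.80 CPM, apart from all other groups, and Slc29a1 falls from day 10 to day 20 with 1 dKO day 10 library at 25.1 CPM.

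WT libraries held few reads of Ada, down to 6 gene-strand counts in WT male day 10 replicate 3, which limits the precision of its ratio. The WT day 20 libraries held 10, 10 and 11 counts in females and 26, 16 and 20 in males, on the strand of the gene. Reads on the opposite strand outnumbered them: over the 6 WT libraries at day 20 there were 230 opposite-strand and 93 gene-strand counts, an opposite-strand share of 71.2% (95% Wilson interval 66.0 to 75.9%, counting error only). In dKO at day 20 the share was 17.7% (15.3 to 20.4%, 153 opposite-strand and 710 gene-strand counts), and at day 10 it was 48.4% in WT and 40.3% in dKO. Opposite-strand CPM at day 20 was 1.12 ± 0.318 in dKO and 1.48 ± 0.365 in WT (SD, n = 6 each), and the groups overlapped. The day 20 difference in Ada was therefore on the gene strand. With the unstranded counts, which take reads of either strand, the log2 fold change was 1.67 ± 0.14 and the groups still did not overlap, at 5.83 to 8.28 CPM in dKO and 1.55 to 2.92 CPM in WT. Among the genes of the count tables, none is annotated as overlapping Ada, and annotated genes outside those tables were not searched. The source of the opposite-strand reads was not tested.

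**Figure D2:**
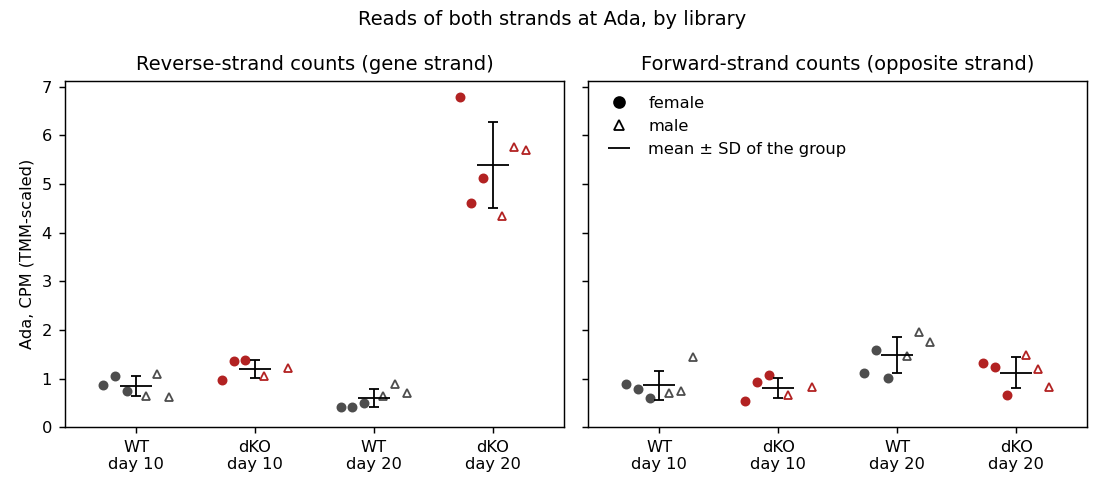
CPM of Ada from gene-strand (left) and opposite-strand counts (right), on a shared linear axis from 0, by genotype and day; points are libraries (circles female, triangles male) and bars the mean ± SD. Gene-strand values in dKO at day 20 (4.35 to 6.80 CPM) stand above all others, while opposite-strand values of the genotypes overlap at both days.

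Lymphocytes are a known site of high Ada expression, and their markers were near the limit of detection. The 6 lymphocyte markers summed to 0.0549 to 0.634 CPM in dKO and 0.167 to 0.719 CPM in WT at day 20, with 1 of 6 genes tested and 0 called. Cd8a was at 0 in all WT libraries at day 10. Of 6 erythrocyte markers 6 were lower in dKO at day 20 (75.8 to 131 against 320 to 676 CPM summed), where 19.2% of all genes were called lower. The part of either cell type in the Ada difference was not tested.

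Adk (ENSMUSG00000039197, chromosome 14, 21052574 to 21448569, plus strand), the kinase that returns adenosine to AMP, was lower in dKO at day 20 by a small margin. It measured 46.1, 45.6 and 42.5 CPM in dKO females and 36.9, 43.4 and 43.7 CPM in dKO males. WT females measured 47.7, 50.5 and 49.3 CPM and WT males 47.8, 52.7 and 53.6 CPM. All 6 dKO libraries lay below the lowest WT library, and means were 43.0 ± 3.28 and 50.3 ± 2.48 CPM (SD, n = 6 each). The log2 fold change was -0.22 ± 0.07, with -0.13 ± 0.10 in females and -0.31 ± 0.10 in males. At day 10 the genotypes overlapped, at 26.1 to 32.5 CPM in dKO and 26.2 to 39.5 CPM in WT. In the brain Adk is known as an astrocyte enzyme. Of 8 astrocyte markers 2 were higher and 3 lower in dKO at day 20, beside 18.8% and 19.2% of all genes. Their sum was 3643 to 4172 CPM in dKO and 4133 to 4403 CPM in WT, and its part in the Adk difference was not tested.

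Gm49342 (ENSMUSG00000021871, chromosome 14, 50944517 to 50963136, plus strand) shares 718 of its 750 exon bases, or 95.7%, with the model of Pnp, the phosphorylase that acts on inosine. It was lower in dKO at day 20. Values were 6.68, 8.42 and 10.4 CPM in dKO females and 6.97, 8.22 and 7.41 CPM in dKO males, against 9.72 to 11.6 CPM in WT. Of the 6 dKO libraries 5, all but female replicate 3, lay below the lowest WT library. The log2 fold change was -0.40 ± 0.09 at day 20 and 0.04 ± 0.10 at day 10, when dKO measured 9.82 to 11.8 CPM and WT 9.40 to 11.1 CPM. Whether reads of Pnp itself were counted under this model is not given in the sources used here.

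Nt5e (ENSMUSG00000032420, chromosome 9, 88327197 to 88372092, plus strand), the ectoenzyme that makes adenosine from AMP, differed little at day 20. It was at 11.1 to 14.2 CPM in dKO and 10.6 to 15.2 CPM in WT libraries, and the log2 fold change was 0.05 ± 0.12. At day 10 dKO females measured 9.13, 6.58 and 10.1 CPM and dKO males 9.68 and 7.64 CPM. WT females measured 11.4, 11.03 and 12.3 CPM and WT males 14.1, 10.8 and 7.01 CPM. The groups overlapped through WT male replicate 3, and the log2 fold change was -0.38 ± 0.14. Opposite-strand reads were 26.1 to 40.2% of stranded counts at Nt5e in the 4 combinations of genotype and day. They were lower in dKO at day 20, at 4.43 ± 0.725 CPM against 6.36 ± 0.481 CPM in WT (SD, n = 6 each), with no overlap, which held in that direction for 2.23% of 13571 genes with enough such counts. With the unstranded counts the day 20 log2 fold change of Nt5e was -0.14 ± 0.09.

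Slc29a1 (ENSMUSG00000023942, chromosome 17, 45585200 to 45599606, minus strand), the equilibrative transporter, did not separate the genotypes at either day. At day 20 it measured 21.2, 24.7 and 26.9 CPM in dKO females and 23.1, 22.3 and 21.2 CPM in dKO males. WT libraries were at 19.4 to 22.8 CPM, and the log2 fold change was 0.15 ± 0.18. At day 10 dKO females measured 76.3, 88.1 and 98.4 CPM and dKO males 70.3 and 25.1 CPM. WT females measured 84.6, 76.0 and 53.1 CPM and WT males 80.0, 85.6 and 69.6 CPM. The low value belonged to dKO male day 10 replicate 2, the library with few cerebellar and choroid plexus transcripts. Without it the log2 fold change was 0.05, against -0.21 ± 0.18 with it, and without the other dKO male of day 10, replicate 1, it was -0.68.

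Adora1 (ENSMUSG00000042429, chromosome 1, 134199223 to 134235431, minus strand), the inhibitory receptor, had the highest level per kb of the receptor genes and a like level in both genotypes. At day 20 dKO libraries were at 137 to 157 CPM and WT libraries at 142 to 161 CPM, and the log2 fold change was -0.05 ± 0.07. At day 10 the ranges were 68.1 to 96.0 and 72.5 to 98.7 CPM, and the log2 fold change was 0.00 ± 0.08. Mybph lies on the other strand and shares 1162 exon bases with it, but held 70 counts over all libraries.

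Adora2a (ENSMUSG00000020178, chromosome 10, 75316877 to 75334784, plus strand), the stimulatory receptor of striatal neurons, was lower in dKO at day 20. It measured 0.583, 1.28 and 1.05 CPM in dKO females and 0.634, 0.960 and 0.823 CPM in dKO males. WT females measured 1.33, 1.84 and 1.38 CPM and WT males 1.31, 2.13 and 1.68 CPM. The groups did not overlap, though the highest dKO library, at 1.28 CPM, lay just under the lowest WT library. The dKO libraries held only 14 to 33 counts. With the unstranded counts the groups overlapped, at 0.713 to 1.58 CPM in dKO and 1.34 to 2.17 CPM in WT. The overlap was through dKO male replicate 1 alone, which held 21 opposite-strand counts beside 14 on the gene strand. The next highest dKO library, female replicate 2, was at 1.31 CPM. Means were 0.889 ± 0.264 and 1.61 ± 0.331 CPM (SD, n = 6 each), and the log2 fold change was -0.85 ± 0.19. At day 10 the groups overlapped (2.01 to 2.51 CPM in dKO, 1.54 to 2.78 CPM in WT), and the log2 fold change was 0.15 ± 0.18. Other markers of striatal projection neurons went in both directions at day 20. Drd1, a dopamine receptor of direct-pathway neurons, was lower in dKO (-0.73 ± 0.18), while Penk (0.39) and the striatal G protein regulator Rgs9 (0.44) were higher. Among the markers not called, Drd2 measured -0.17 ± 0.18. Gpr6, at a mean of 0.437 CPM in dKO and 0.299 CPM in WT, measured 0.55 ± 0.39. The summed level of the 10 striatal markers overlapped between genotypes, at 392 to 420 CPM in dKO and 374 to 421 CPM in WT. Its largest parts were Pde10a (means of 119 CPM in dKO and 131 CPM in WT) and Adcy5 (117 and 121 CPM). The sum therefore says little about markers at low levels, such as Drd1.

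Adora2b (ENSMUSG00000018500, chromosome 11, 62248984 to 62266453, plus strand), a stimulatory receptor with low affinity for adenosine, overlapped between genotypes at both days. At day 20 it was at 1.90 to 2.96 CPM in dKO and 1.87 to 2.77 CPM in WT, and the log2 fold change was -0.16 ± 0.16. At day 10 it was at 2.73 to 4.63 and 2.55 to 3.82 CPM, and the log2 fold change was 0.01 ± 0.16.

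Among the 7 members, 3 were called in dKO against WT at day 20 at an adjusted p under 0.05 (edgeR), with Ada higher and Adk and Adora2a lower, where 38.0% of all genes tested were called (18.8% higher and 19.2% lower). The same 3 had groups that did not overlap, which held for 20.1% of all genes (9.79% with dKO higher and 10.3% with dKO lower). At day 10, 0 of 7 members were called by edgeR, beside 4.99% of all genes. Of the members 2 had an unadjusted p under 0.05 (edgeR), as did 5294 of the 21657 genes. DESeq2 called 1 member and 2087 genes. At day 10, groups did not overlap for 0 of 7 members and for 1.99% of all genes. Since the members were chosen with such results known, nothing is read from these counts. The median log2 fold change of the 7 at day 20 was -0.05, beside -0.00029 over all genes.

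**Figure D3:**
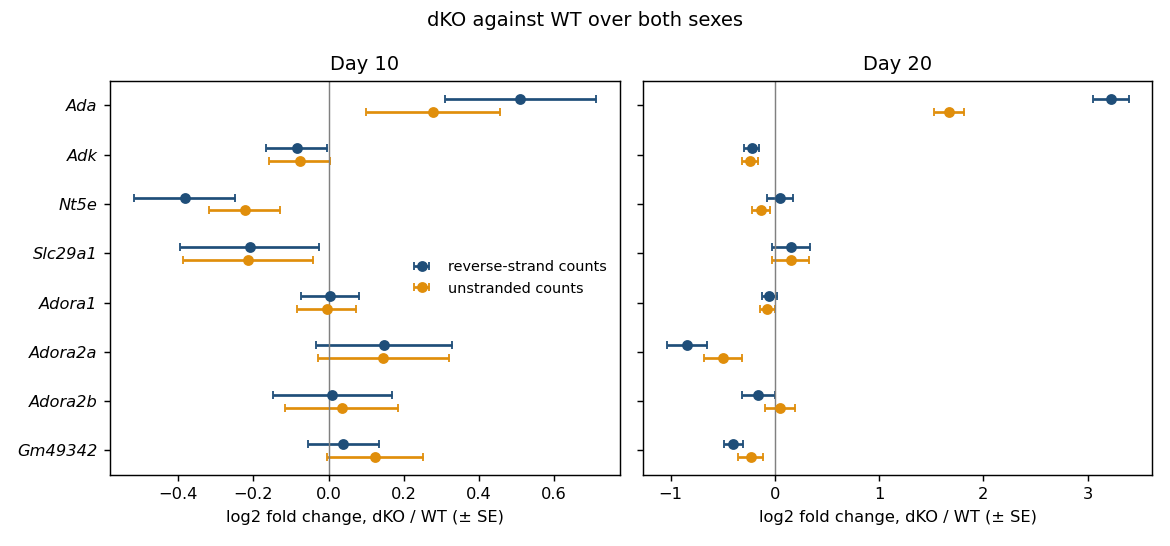
Log2 fold change of dKO against WT over both sexes at day 10 (left) and day 20 (right), with separate horizontal scales; points are fitted values and bars ± SE, from reverse-strand counts (blue) and unstranded counts (orange). At day 20 Ada stands at 3.23 with reverse-strand and 1.67 with unstranded counts, and the other genes lie between -0.85 and 0.15.

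Age in WT was tested separately, since it did not enter the choice of members, although its day 20 libraries are also the controls of the genotype contrast. From day 10 to day 20 in WT, 5 of 7 members changed (edgeR quasi-likelihood test, Benjamini-Hochberg adjustment over 21657 genes), beside 50.4% of all genes. Slc29a1 fell most, by 1.84 ± 0.18 on the log2 scale (adjusted p = 2.2e-07), from 74.8 ± 12.2 to 20.9 ± 1.29 CPM (SD, n = 6 each). Every day 20 library lay below every day 10 library; 31.9% of all genes had no overlap between the days. Adora1 rose by 0.91 ± 0.07 (adjusted p = 7.8e-10), from 80.0 ± 10.0 to 151 ± 7.34 CPM, and Adk rose by 0.66 ± 0.07 (adjusted p = 1.18e-07), from 31.5 ± 4.62 to 50.3 ± 2.48 CPM. Neither gene had overlapping groups. These 3 calls held under all 30 alternatives.

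Adora2b fell by 0.43 ± 0.15 in WT with age (adjusted p = 0.0185, edgeR), from 3.29 to 2.42 CPM, with 5 of 6 day 20 libraries below the lowest at day 10 and overlapping groups. The call was lost without WT female day 10 replicate 3 (adjusted p = 0.0593), WT male day 10 replicate 2 (0.0602) or WT female day 20 replicate 1 (0.0607). Ada fell by 0.54 ± 0.20 (adjusted p = 0.0293, edgeR), from 0.844 to 0.600 CPM with overlap. This call was also fragile, and was lost without WT female day 10 replicate 2 (adjusted p = 0.0601), WT male day 10 replicate 2 (0.127), WT female day 20 replicate 1 (0.0600), WT female day 20 replicate 2 (0.0591) or WT male day 20 replicate 1 (0.0729), without the filter on low counts (0.0750) and with DESeq2 (0.0666). With unstranded counts its sign turned, to 0.28 ± 0.16. Adora2a measured -0.40 ± 0.17 (adjusted p = 0.0549, edgeR), which passed the threshold under 11 of 30 alternatives, and Nt5e 0.13 ± 0.12 (adjusted p = 0.393). Counted over members, 3 were called without WT male day 10 replicate 2 or WT female day 20 replicate 1.

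In dKO the direction with age was the same as in WT for Slc29a1 (71.6 to 23.2 CPM), Adora1 (79.6 to 146 CPM) and Adk (29.8 to 43.0 CPM). It was opposite for Ada, though the WT direction of Ada turned with unstranded counts. Adora2a (2.35 to 0.889 CPM) and Nt5e (8.62 to 12.9 CPM) did not overlap between days in dKO but did in WT. No overlap between days held for 37.7% of all genes in dKO and 31.9% in WT. Whether age effects differ between genotypes was not tested.

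Sex showed no called difference among the members. In WT males against females 0 of 7 were called by edgeR and 0 by DESeq2, 0 had an unadjusted p under 0.05, and 0.0693% of all genes were called. The genotype by sex interaction called 0 of 7 members at either day with either tool, beside 0% of all genes with edgeR and 363 genes with DESeq2 at day 20, with 1 member at an unadjusted p under 0.05 at each day. Over all genes, 2482 at day 10 and 3220 at day 20 had an unadjusted p under 0.05. For Ada at day 20 the male minus female difference in log2 fold change was -0.78 ± 0.36 (adjusted p = 0.311, edgeR). For Slc29a1 at day 10 it was -1.02 ± 0.37 (adjusted p = 0.344, edgeR) and rested on the 2 dKO males: without dKO male day 10 replicate 1 it was -1.95 (adjusted p = 0.00019), which leaves replicate 2 alone, and without replicate 2 the adjusted p was 0.897.

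Levels of different members were compared only per kb of exon. In WT at day 10 the order was Slc29a1 (18.7 CPM per kb), Adora1 (13.8), Adk (3.70), Adora2b (1.78), Nt5e (1.29), Adora2a (0.688) and Ada (0.421). Slc29a1 and Adora1 overlapped in range, as did each neighbouring pair from Adora2b down to Ada. In WT at day 20 Adora1 led at 26.1 CPM per kb, followed by Adk (5.90) and Slc29a1 (5.21), which overlapped. Below them came Nt5e (1.44) and Adora2b (1.31), which overlapped, and then Adora2a (0.527) and Ada (0.300), which also overlapped. In dKO at day 20 Ada, at 2.69 ± 0.445 CPM per kb, stood in the fourth place, below Adk (5.05) and above Nt5e (1.49), with no overlap on either side. Adora2a was lowest, at 0.290 CPM per kb.

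The other genes of purine nucleoside handling were taken from a list by role, of which 62 of 66 were tested. This list, too, was drawn up with earlier results of these data known. The adjusted p-values of its genes are therefore descriptive and not independent tests. At day 20, 26 of 62 were called in dKO against WT (9 higher, 17 lower), or 41.9%, near the 38.0% of all genes, and their median log2 fold change was -0.08. The day 20 counts by role and by marker list below stand beside 18.8% of all genes called higher and 19.2% called lower. Each role holds few genes. The plot of fold changes by role shows all 62 genes.

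Genes listed under adenosine formation outside cells were called in 4 of 8 cases, all lower. Enpp1, a pyrophosphatase that releases AMP from ATP, was at 7.04 ± 0.639 CPM in dKO and 13.6 ± 1.20 CPM in WT (SD, n = 6 each; log2 fold change -0.95 ± 0.09, adjusted p = 2.71e-08 by edgeR). Alpl, tissue-nonspecific alkaline phosphatase, fell from 4.94 ± 0.841 to 2.66 ± 0.546 CPM (-0.89 ± 0.14). Of 8 endothelial markers, 6 were also lower in dKO, with sums of 218 to 276 against 302 to 315 CPM, and their part in these falls was not tested.

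Of the 10 genes listed under adenosine formation inside cells, which include relatives of such enzymes, 4 were higher and 2 lower. Nt5c2, a cytosolic nucleotidase that prefers IMP and GMP, rose from 69.7 ± 1.79 to 86.3 ± 4.77 CPM (0.31 ± 0.05). Nt5c1b, another cytosolic nucleotidase gene, had the highest fitted value of the 62 (3.31 ± 0.78, adjusted p = 0.00185 by edgeR), but at 0.0388 to 0.816 CPM in dKO and 0 to 0.375 CPM in WT its groups overlapped. The nucleotidase gene Nt5c3b fell by 0.27 ± 0.06 and Ahcyl2, a relative of S-adenosylhomocysteine hydrolase, by 0.17 ± 0.04. Among enzymes that handle AMP, Ak4, a mitochondrial adenylate kinase, fell from 79.8 ± 4.82 to 43.8 ± 4.81 CPM (-0.87 ± 0.10), and 3 of 10 genes of that role were called. Downstream of inosine, Xdh, the oxidase that makes urate, rose from 2.68 ± 0.457 to 5.98 ± 1.07 CPM (1.16 ± 0.20) and was the 1 called gene of 7. Of 13 purine synthesis genes 1 was higher and 4 lower, of 5 other transporters 1 was higher (Slc28a1, 1.76 ± 0.48, at 0.155 to 0.951 CPM in dKO and 0.0416 to 0.215 CPM in WT) and 1 lower, and Adora3, the remaining adenosine receptor gene, measured -0.32 and was not called.

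Genes of ATP release and ATP receptors were called in 5 of 8 cases. Slc17a9, the vesicular nucleotide transporter, rose from 0.538 ± 0.118 to 5.58 ± 4.70 CPM (3.08 ± 0.29, adjusted p = 4.15e-08 by edgeR), with dKO libraries spread from 2.04 to 14.2 CPM. P2ry12, a microglial receptor for ADP, fell by 1.67 ± 0.14 (1.34 with unstranded counts), P2ry13 by 0.88 ± 0.19 (0.49 with unstranded counts), P2ry1 by 0.52 ± 0.09 and P2rx7 by 0.44 ± 0.09. Of 8 microglial markers, P2ry12 among them, 7 were lower in dKO at day 20, with sums of 92.0 to 144 against 165 to 195 CPM, and their part in the receptor changes was not tested. Nt5c1b and Slc28a1 were under the level set for naming a gene and were added after their values were seen; the other 12 genes named for day 20 were called under all 30 alternatives.

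**Figure D4:**
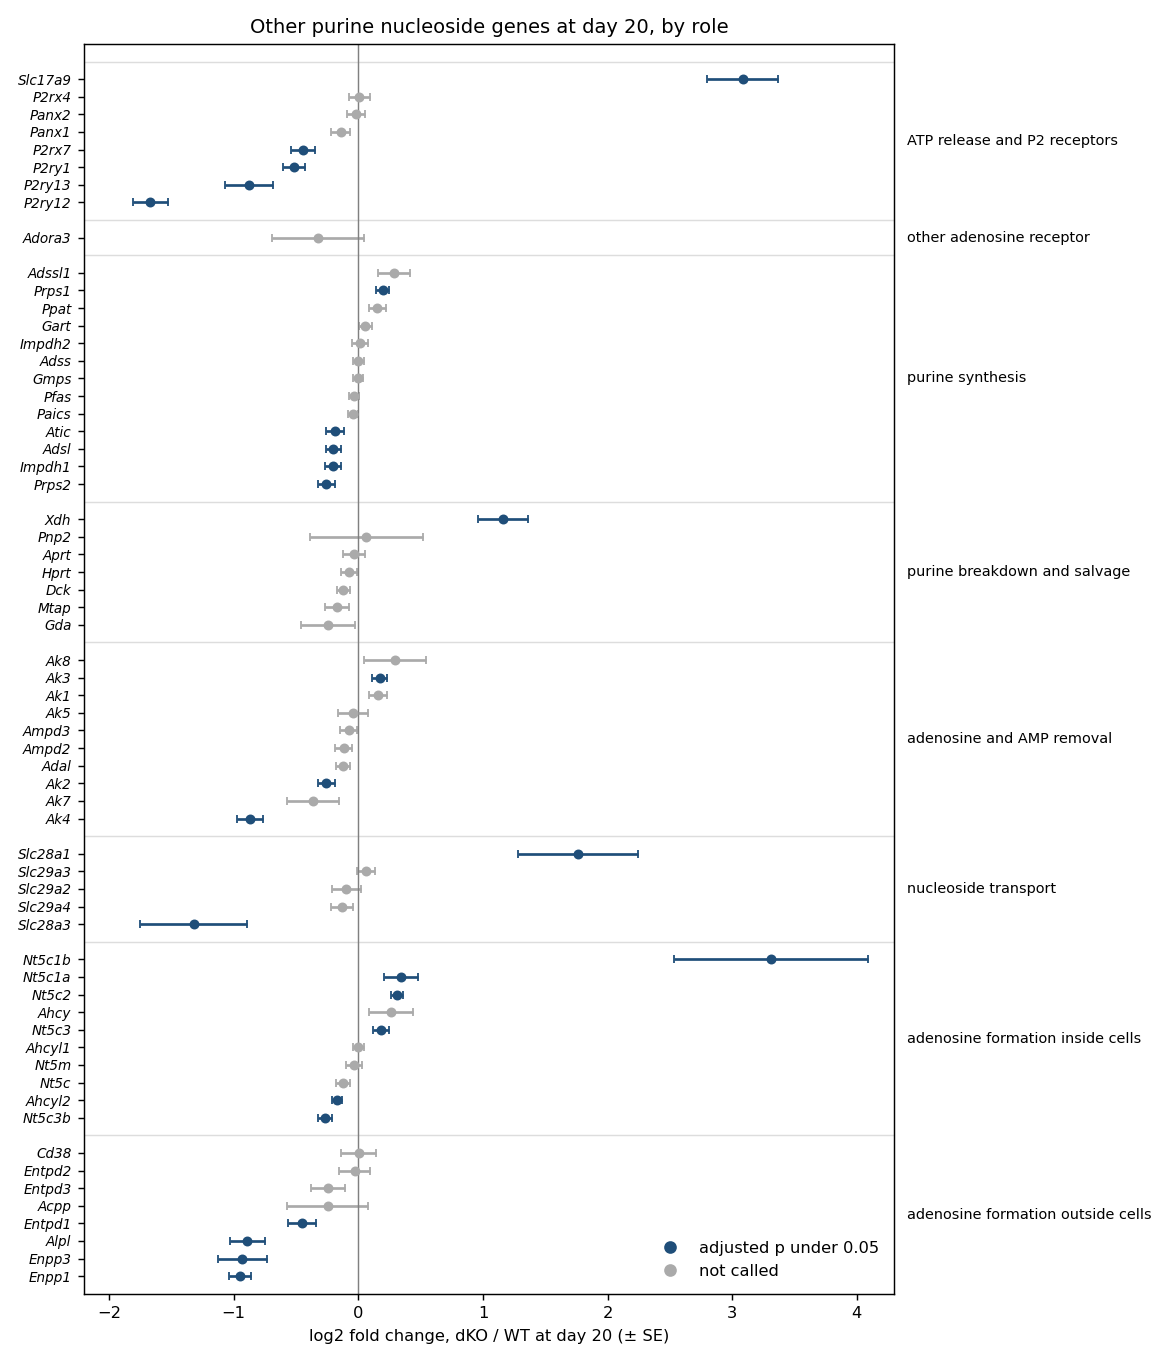
Log2 fold change of dKO against WT at day 20 (horizontal axis) for 62 other purine nucleoside genes (rows), grouped by role as labelled on the right; points are fitted values with ± SE bars, blue where the adjusted p was under 0.05 and grey otherwise. Nt5c1b (3.31), Slc17a9 (3.08), Slc28a1 (1.76) and Xdh (1.16) lie to the right, and P2ry12 to the left at -1.67; Nt5c1b and Slc28a1 were under 1 CPM in every day 20 library.

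At day 10, 3 of these 62 genes were called (4.84%, beside 4.99% of all genes). Gda, guanine deaminase, rose by 1.04 ± 0.22 on the log2 scale (adjusted p = 0.0238, edgeR), from 15.1 ± 2.58 to 30.3 ± 15.8 CPM, with a range of 14.8 to 54.4 CPM in dKO. Slc29a3, a lysosomal nucleoside transporter, fell by 0.30 ± 0.08 (adjusted p = 0.0423, edgeR) and Ahcyl2 by 0.15 ± 0.04 (adjusted p = 0.0499, edgeR). Of 30 alternatives, 26 called Gda, 14 Slc29a3 and 7 Ahcyl2. The count was 0 without dKO male day 10 replicate 2, dKO female day 10 replicate 2 or WT male day 10 replicate 1, 15 without dKO male day 10 replicate 1, 9 without dKO female day 10 replicate 1 and 7 without WT male day 10 replicate 3. It was 1 without dKO female day 10 replicate 3, WT male day 10 replicate 2, dKO male day 20 replicate 2 or 3, or any 1 WT library of day 20.

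The genes whose log2 CPM tracked each member most closely over the 23 libraries were taken from 16985 genes that averaged 1 CPM or more. For Ada they were Fkbp5 (Pearson r = 0.962, Spearman rho = 0.864), Eif4b (0.953, 0.825) and Matn1 (0.933, 0.670). Ada in dKO at day 20 lay apart from the other groups, so these values describe the day 20 dKO libraries against the rest. Fkbp5, which encodes a co-chaperone of steroid receptors, differed by 2.24 on the log2 scale between genotypes at day 20, and Matn1, a cartilage matrix protein gene, by 6.20. Slc29a1 was tracked by Ddah2, Nhlh2 and 2700081O15Rik (r = 0.988 to 0.993), Adora1 by Frmpd4, Ctsb and Kif21a (0.983 to 0.985) and Adk by Pls1, Epdr1 and Rassf8 (0.973 to 0.986). Values were lower for Adora2a, with Rybp, Pycrl and Tnfaip1 (0.919 to 0.932), for Nt5e, with Ctns, Tmod1 and Camk4 (0.895 to 0.907), and for Adora2b, with H2-Q2, Fam196a and Dock6 (0.841 to 0.849). Libraries of 1 group share genotype, age and brain dissection, so such values are descriptions only.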

How the data were processed

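The authors deposited 1 table of raw read counts per gene for each library, from stranded mRNA libraries per the labels' protocols. Tools named in the submitters' processing notes are STAR 2.5.2b and HTSeq, with the build GRCm38.p5; the annotation behind the counts is not given in the sources used here. The reverse-strand counts were used, and the forward strand held 5.22 to 7.46% as many. Rows naming no gene stayed out; these were 41.7 to 47.5% (no feature), 7.65 to 11.04% (unmapped), 4.77 to 5.94% (multimapping) and 0.589 to 1.05% (ambiguous) of reads. Symbols and positions came from GENCODE M21 (50462 identifiers matched, 224 did not).

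Libraries with at least 1 M gene counts (23 of 24) were fitted in R 4.3.3 with edgeR 4.0.16: filterByExpr by group, TMM, robust glmQLFit with 1 mean for each of 8 groups, two-sided glmQLFTest and Benjamini-Hochberg adjustment over 21657 genes. Both sexes were averaged within a contrast. The SE of a log2 fold change was its size divided by the square root of F. DESeq2 1.42.0 was an alternative, with RLE factors, other filters, unstranded counts, all 24 libraries, fits of only the compared groups and the removal of each library.

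The members and lists were chosen with earlier results of these data known. Named other genes were those called with a mean of at least 1 CPM and the same sign in both sexes, at most 12 per day by p, and the 3 genes most like each member; marker genes named beside a member were picked after seeing values, as was the look at forward-strand counts. Protein sequences were not used here.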

Additional observations from a re-analysis of the deposited data

Results flagged for a closer look

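Adora2b, the low-affinity stimulatory receptor gene, gave both values that stood far from the rest of their group. In dKO at day 10 the library male replicate 2 measured 4.63 CPM, while the other 4 measured 2.73 to 3.003 CPM, so that the gap to its neighbour made up most of the range of the group. This is the library with few cerebellar and choroid plexus transcripts, and the part of its tissue content in the value was not tested. In dKO at day 20 the library female replicate 3 measured 2.96 CPM, while the other 5 measured 1.90 to 2.14 CPM. Both came from 32 groups examined by Dixon's criterion, under which chance flags about 1 in 20.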

How the results depend on the processing

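No paired analysis was possible because the labels carry no replicate numbers; those used here only name libraries. Day 20 counts moved little: 7169 to 8910 genes over the libraries left out in turn (8231 with all), and 22 to 28 of the other purine genes (26 with all). At day 10 the count of 1081 genes ran from 15 (without dKO male day 10 replicate 2) to 4516 (without dKO male day 10 replicate 1), and was 2087 with DESeq2 and 6 with only the groups compared; 15 of 23 removals moved it by over 1.5 times. The 3 other purine genes ran from 0 to 15, with 8 by DESeq2 and 0 with only the groups compared, and 16 removals moved that count. Members called with age in WT ran from 3 to 6. For the genotype by sex interaction at day 10, 0 genes became 2 without a filter and 0 to 1997 over removals, and 0 to 1 among members. At day 20, 0 genes became 177 without a filter, 363 with DESeq2, 1182 with only the groups compared and 0 to 150 over removals. Unstranded counts moved Ada at day 20 to 1.67 and Nt5e to -0.14, and turned Ada with age in WT to 0.28, by construction including the opposite strand; the cause of the other shifts was not tested. Where a dKO male day 10 library was left out, the other was assumed to vary like the remaining groups. Depth limits Ada most, at 10 to 26 counts in WT day 20 libraries and 6 to 35 in WT day 10 libraries.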

Other observations

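Reads on the strand opposite to the members, which enter the comparisons above only at Ada and Nt5e and through the unstranded counts, differed in amount between genes. Adk and Adora1 held almost none, at 0.0513 to 0.225% of stranded counts in every combination of genotype and day. At Adora2a there were 34 beside 116 gene-strand counts in dKO at day 20 (22.7%, Wilson interval 16.7 to 30.0%) and 1 beside 244 in WT (0.408%), and 21 of the 34 came from 1 library, dKO male replicate 1. At Adora2b the shares were 22.4% in dKO and 9.38% in WT at day 20. These values were looked at after seeing the data, and their source was not tested.

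Slc29a1 shares 275 exon bases with Gm17080, an antisense gene with 167 counts over all libraries. The opposite-strand share at Slc29a1 was 6.21% in dKO and 4.73% in WT at day 20, against 1.31% and 1.54% at day 10.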
